A study of Mus musculus with 12 samples.

Results

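The 8 genes Ptgds, Car2, Apod, Il33, Klk6, Anln, Hapln2 and Qdpr, a set named for mature oligodendrocyte secreted and enzyme genes, were followed through peaks of H4K8ac, acetylation of lysine 8 of histone H4, in mouse oligodendrocyte progenitor cells (OPCs). They were chosen by name, with no measured value in the rule but with earlier results of these data known. Their members are the peaks that the authors' annotation assigns to those gene names. All 8 had at least 1 assigned peak, among 23433 genes with a peak in any library. The cells were sorted as primary cells from the forebrain of mice of the genotype Pdgfr{alpha}H2BEGFP, in which a nuclear green fluorescent protein reports Pdgfra, at postnatal day 5 (neonatal) or postnatal day 60 (adult). Both ages carry the reporter and no other treatment is labelled. There were 3 neonatal and 3 adult H4K8ac libraries, labelled as biological replicates. Whether animals were pooled and how many animals gave each replicate is not given in the sources used here, so p-values measure only the spread between these libraries. Pdgfra is also expressed by fibroblasts of the meninges and vessels, so the reporter alone does not define an OPC.

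OPCs divide, migrate and differentiate into oligodendrocytes, the cells that wrap axons in myelin. Acetylation of histone tails, read by bromodomain proteins, is found at active promoters and enhancers, and H4K8ac is 1 of several such marks on the tail of histone H4. The genes are known from mature oligodendrocytes but act in different pathways. Ptgds, which makes prostaglandin D2 and also carries lipophilic molecules as a lipocalin, and Apod, apolipoprotein D, another lipocalin that binds lipids, are secreted. Klk6 is a secreted serine protease of the kallikrein family, and Hapln2 is a link protein that ties hyaluronan to proteoglycans at nodes of Ranvier. Car2, carbonic anhydrase 2, interconverts CO2 and bicarbonate, and Qdpr regenerates tetrahydrobiopterin, the cofactor of aromatic amino acid hydroxylases. Il33 is a nuclear cytokine of the interleukin-1 family that is released by damaged cells. Anln, anillin, is a scaffold of actin and septins, so it is neither secreted nor an enzyme despite the name of the set.

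The 6 peak lists differ in length, which bears on every value below. There were 9097, 31189 and 7353 neonatal peaks (replicate 1, 2 and 3), covering 2.98, 13.7 and 2.33 Mb. There were 72278, 72661 and 77002 adult peaks covering 41.9, 44.3 and 60.9 Mb. Neonatal replicate 2 thus stands apart from the other neonatal libraries, and adult replicate 3 covers more than the other adult ones. The lists give no read counts, so the depth behind a peak or behind its absence is unknown, and a gene without a peak may lie under the threshold of that library. In sorted cells a longer acetylated stretch in all cells and the same stretch in more of the cells cannot be told apart.

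Markers were read the same way, by genes with a promoter peak in neonatal replicates 1, 2 and 3 and then adult replicates 1, 2 and 3. Of 10 OPC markers, 10, 10 and 8 had one in the neonatal libraries and 9, 8 and 8 in the adult ones. With each list reduced to its 7353 strongest peaks by p-value, the length of the shortest list, these counts were 9, 8 and 8 against 4, 4 and 4. With full lists, promoter peaks of the OPC markers covered 8.39, 24.2 and 3.96 kb in the neonatal and 37.8, 43.0 and 54.8 kb in the adult libraries. For 4 of the 10, every adult library lay above every neonatal one, and for 0 the reverse held. Of 12 markers of myelinating oligodendrocytes, 2, 5 and 2 had one in the neonatal libraries and 12 in each adult library, with a summed promoter length of 0.675 to 4.26 kb against 65.4 to 102 kb. At equal list length they were 2, 3 and 2 against 8, 10 and 9. With full lists, all 12 had more promoter length in every adult library than in any neonatal one. So did the 8 genes and 60.1% of all 18548 genes with a promoter peak. Of 8 fibroblast markers, 0 to 4 had a promoter peak in a neonatal library and 2 in each adult library, with no adult promoter peak at Col3a1, Lum, Dcn, Slc6a13 or Slc47a1, and the summed promoter length was 0.545 to 1.79 kb in the adult and 0 to 2.62 kb in the neonatal libraries. Col1a1 alone of them had a promoter peak in every adult library, over 0, 0.168 and 0 kb in the neonatal and 0.530, 0.391 and 0.527 kb in the adult ones. Of 8 microglial markers 1, Cx3cr1, had an adult promoter peak, and of 8 endothelial and mural markers 1, Pecam1, did, with summed adult lengths of 0.579 to 1.07 kb and 0.161 to 0.649 kb. Astrocyte markers with a promoter peak numbered 2 to 6 of 8 in the neonatal and 3 to 6 in the adult libraries (summed 0.450 to 5.88 kb and 4.61 to 9.34 kb), and neuronal ones 0 to 5 and 3 to 5 of 8 (summed 0 to 2.04 kb and 3.13 to 5.11 kb). Among the astrocyte markers Aqp4 and Gja1 had no adult promoter peak, whereas promoter peaks of Slc1a3 covered 0.167, 0.724 and 0 kb in the neonatal and 2.27, 2.73 and 4.68 kb in the adult libraries. The part of any of these cell types in the results was not tested.

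The starts of the genes differ in sequence, and 4 of them are printed because the adult peaks lie over them or beside them in different ways, as described gene by gene below. Each line gives the 120 bases before the RefSeq start of the gene (build GRCm38.p6), 5′ to 3′ on the gene's strand, with CG dinucleotides, the sites of DNA methylation, in capitals. Hapln2 lies on the minus strand (chr3:88027512-88027631), Apod on the minus strand (chr16:31314809-31314928), Il33 on the plus strand (chr19:29924993-29925112, the first of 2 starts) and Qdpr on the minus strand (chr5:45450230-45450349).
Hapln2: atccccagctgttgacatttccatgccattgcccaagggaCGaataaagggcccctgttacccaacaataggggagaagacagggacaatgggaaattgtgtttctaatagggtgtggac
Apod: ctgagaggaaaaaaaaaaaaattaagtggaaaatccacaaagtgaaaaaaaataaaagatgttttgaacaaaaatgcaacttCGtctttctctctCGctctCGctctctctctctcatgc
Il33: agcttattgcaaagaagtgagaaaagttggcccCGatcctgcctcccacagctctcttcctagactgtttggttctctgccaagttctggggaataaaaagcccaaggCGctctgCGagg
Qdpr: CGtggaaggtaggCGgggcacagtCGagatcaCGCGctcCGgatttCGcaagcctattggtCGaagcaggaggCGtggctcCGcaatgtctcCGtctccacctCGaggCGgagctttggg
These stretches hold 1 CG in Hapln2, 3 in Apod, 3 in Il33 and 13 in Qdpr. Over promoters of 300 bases (250 before to 50 after the start), RefSeq entries were matched for 7 of the 8 genes, with 9 promoters in all. The observed over expected CpG ratio was 0.0804 in Ptgds and 0.0987 in Hapln2, 0.384 in Apod, 0.373 and 0.382 at the 2 starts of Il33, 0.344 and 0.136 at those of Klk6, 0.878 in Anln and 0.885 in Qdpr, beside a median of 0.384 over all 32851 promoters. The set thus mixes CpG-poor starts (Ptgds, Hapln2) with CpG-dense ones (Anln, Qdpr). The letters TATAAA, searched on both strands, were in 2 of the 9 promoters, both of Il33 (13.6% of all promoters). The letters CTGGCAC and CTGGTAC, spellings of the motif of Myrf, a factor of myelin gene transcription, were in 1 (Hapln2) and 0 of the 9, beside 5.01% and 2.24% of all. The Sox-type letters ACAAAG were in Ptgds, Apod and 1 Klk6 promoter (18.7% of all), and ACAATG in Apod, 1 Klk6 promoter and Hapln2 (12.6% of all).

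All 8 genes carried more H4K8ac-covered promoter sequence in every adult library than in any neonatal library. Promoter peaks are those the authors' annotation places within 3000 bp of a transcript start, and their summed length per gene is given here in kb. Over the 8 genes together, promoter peaks covered 0.251, 2.68 and 0.409 kb in neonatal replicates 1, 2 and 3 and 34.3, 36.7 and 43.5 kb in adult replicates 1, 2 and 3. The difference in means (adult minus neonatal) had a median of 5.52 kb over the 8 genes beside 0.608 kb over all 18548 genes with a promoter peak in any library. Non-overlap itself was common, since 60.1% of those genes had all adult libraries above all neonatal ones, so the count of 8 of 8 is read against that share. The exact two-sided permutation test with 3 libraries against 3 cannot give a p under 0.1, which each of the 8 promoter differences reached (Benjamini-Hochberg adjusted p = 0.165 over 18548 genes), and none passes 0.05.

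**Figure D1:**
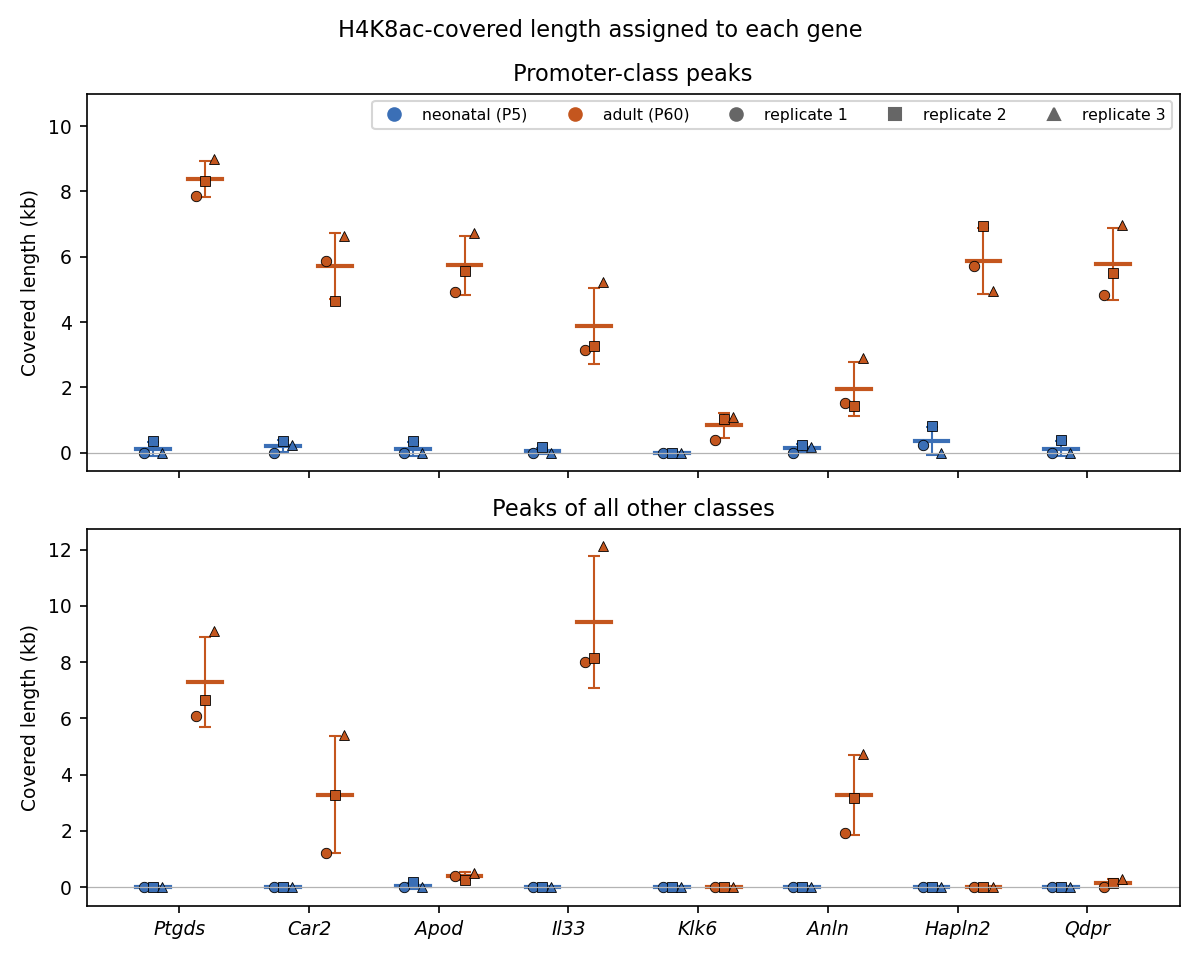
Length of H4K8ac peaks assigned to each gene (y axis, kb) in promoter-class peaks (top) and in peaks of all other classes (bottom), with 1 point per library (blue neonatal, orange adult, shape by replicate), the mean as a bar and the SD of 3 libraries as whiskers. All adult promoter points lie above all neonatal ones for each of the 8 genes, and neonatal points stay at or below 0.815 kb.

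Outside promoters, the genes divided more. Peaks assigned to them in introns, exons, intergenic sequence and other non-promoter classes covered 0, 0.183 and 0 kb in the neonatal libraries and 17.6, 21.6 and 32.2 kb in the adult libraries. Of the 6 genes with such peaks, 5 (Ptgds, Car2, Apod, Il33 and Anln) had all adult libraries above all neonatal ones, beside 51.8% of 12759 genes with a non-promoter peak, each at the smallest possible exact permutation p of 0.1 (adjusted p = 0.193). Qdpr did not separate (mean difference 0.148 kb, exact permutation p = 0.4, adjusted p = 0.577), and Klk6 and Hapln2 had no non-promoter peak assigned. Counted by position, in the gene and 10000 bp on either side, 7 genes separated, all but Klk6, with no share of all genes counted this way. The median difference over the 6 genes was 3.29 kb beside 0.443 kb over all 12759.

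The shape of these differences was examined by merging overlapping peaks across the 6 lists into regions. The 8 genes had 67 regions. None was without an adult peak. Peaks of all 3 adult but not of a single neonatal library made up 17, and 7 more were in all 3 adult and at least 1 neonatal library, whereas 30 were in 1 library only. Each gene except Klk6 thus had exactly 1 region shared by all adult libraries and a neonatal one, with at most 0.815 kb covered in a neonatal library. The adult lists are much longer, and regions were not merged and counted over all genes. These counts therefore describe the 8 genes and do not set them apart from others.

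**Figure D2:**
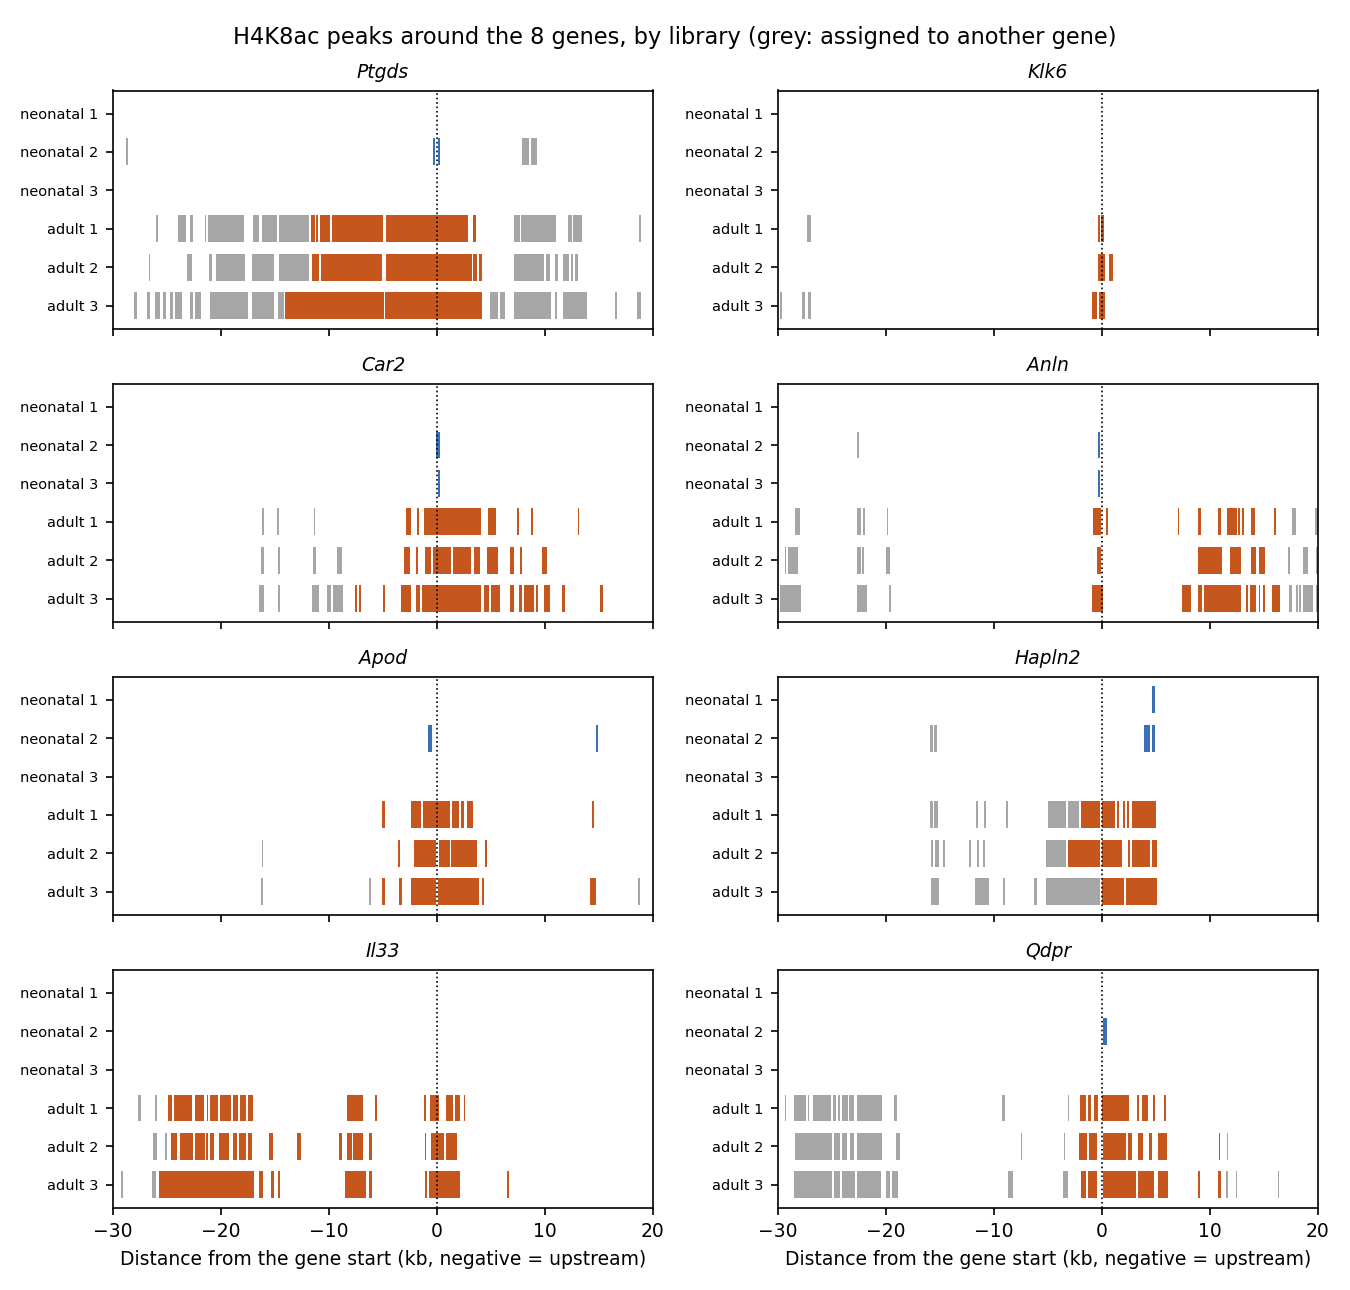
H4K8ac peaks from 30 kb upstream to 20 kb downstream of each gene start (x axis, kb, in the direction of transcription, dotted line at the start), with 1 row per library. Coloured bars are peaks assigned to the gene (blue neonatal, orange adult) and grey bars are peaks assigned to another gene; adult peaks form long stretches at Ptgds and upstream of Il33, and Klk6 has only short ones.

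Among the secreted lipocalins, Ptgds (chromosome 2, 25466709 to 25470110, minus strand) had the longest promoter coverage of the 8 genes under the authors' assignment. Its promoter peaks covered 0, 0.353 and 0 kb in the neonatal and 7.87, 8.31 and 8.98 kb in the adult libraries (0.118 ± 0.204 against 8.39 ± 0.557 kb, SD, n = 3 each, exact permutation p = 0.1). Adult coverage was close between the replicates and exceeded the length of the gene, 3.40 kb. Merged, the stretch ran over the whole gene (chr2:25465552-25474543). Counted by position, promoter length of Ptgds was 6395, 6716 and 6890 bp in adult replicates 1, 2 and 3, below that of Hapln2 in each. The only neonatal peaks of Ptgds were 2 short ones in replicate 2. They lay 232 bp upstream and 90 bp downstream of the RefSeq promoter start at 25469749, which was inside a peak in all 3 adult libraries. The upstream one (chr2:25469981-25470141) covered the outer end of the gene at 25470110, so a neonatal peak did reach a start of Ptgds.

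A neighbouring adult-only stretch lay upstream of Ptgds, from 4.60 to 14.4 kb before the outer end of the gene at 25470110 (chr2:25474706-25484492). It covered 8.87, 9.17 and 9.63 kb in the adult libraries and 0 kb in each neonatal one. It runs across the long non-coding RNA gene Gm35287, and part of it is assigned to Lcn12, another lipocalin gene. The non-promoter length assigned to Ptgds was 6.10, 6.64 and 9.11 kb in the adult libraries, all intergenic and in this stretch except for a peak of 0.294 kb past the other end of the gene in adult replicate 2. The authors' deposited table lists 2 sites for Ptgds, and the one in this upstream stretch (chr2:25477874-25478273) had a log2 fold change of 4.22 (adjusted p = 3.76e-17), above the 3.35 of the site at its promoter (adjusted p = 1.23e-06).

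Apod (chromosome 16, 31296192 to 31314808, minus strand), the other lipocalin, had promoter peaks over 0, 0.353 and 0 kb in the neonatal and 4.93, 5.58 and 6.72 kb in the adult libraries (0.118 ± 0.204 against 5.74 ± 0.906 kb, SD, n = 3 each, exact permutation p = 0.1). Most of it was 1 stretch over the start (chr16:31310941-31317224). The RefSeq start itself was inside a peak in adult replicate 1 and in a gap of 261 and 244 bp between peaks in adult replicates 2 and 3. Its non-promoter peaks were small, at 0, 0.183 and 0 kb in the neonatal and 0.395, 0.245 and 0.524 kb in the adult libraries. The authors' deposited table gives Apod a log2 fold change of 2.20 at the start (adjusted p = 5.82e-05) and of 1.61 upstream (adjusted p = 0.0482). Among all sites of the authors' deposited table these log2 fold changes stood at percentiles 43.5 and 20.6.

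Klk6 (chromosome 7, 43824438 to 43832027, plus strand) had the least coverage and was the only one of the 8 with promoter peaks in each adult list and none in the neonatal lists, a pattern found in 12.1% of 18548 genes. Its promoter peaks covered 0 kb in each neonatal library and 0.401, 1.02 and 1.08 kb in the adult ones (adult mean 0.835 ± 0.377 kb, SD, n = 3, exact permutation p = 0.1). The 1 region shared by the adult libraries (chr7:43824149-43824860) lay over the first of 2 RefSeq starts, and the second start was in a peak in adult replicate 2 only. The authors' deposited table lists 1 site there, with a log2 fold change of 3.13 (adjusted p = 1.10e-06). The count of 1 gene rests on neonatal replicate 2: without it, 5 of the 8 genes had promoter peaks in each adult list and none in the neonatal lists. The share of all genes with this pattern was not counted without that library, so the 5 cannot be set against 12.1%.

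Hapln2 (chromosome 3, 88020558 to 88027511, minus strand) had promoter peaks over 0.251, 0.815 and 0 kb in the neonatal and 5.72, 6.94 and 4.96 kb in the adult libraries (0.355 ± 0.417 against 5.87 ± 1.00 kb, SD, n = 3 each, exact permutation p = 0.1). The neonatal peaks were not at its RefSeq start but inside the gene, 4676 bp downstream of that start in replicate 1 and from 3898 bp in replicate 2. They count as promoter peaks because another annotated transcript of Hapln2 starts at 88023673. The nearest of them, in replicate 2, lay 60 bp from that inner start. Around the RefSeq start the peaks were adult only. The stretch from 0.020 kb upstream to 2.12 kb downstream (chr3:88025391-88027531) covered 1.51, 1.80 and 2.06 kb, and the next one upstream (chr3:88027707-88032706) covered 4.45, 4.75 and 4.94 kb, with 0 kb in each neonatal library at both. The upstream stretch reaches the long non-coding RNA gene Gm19439, to which all of it is assigned in adult replicate 3 and its farther part in adult replicates 1 and 2. Counted by position, whatever the assigned gene, promoter length was 6696, 6915 and 7815 bp in adult replicates 1, 2 and 3. The authors' deposited table gives a log2 fold change of 5.94 (adjusted p = 4.42e-14) just inside the start (chr3:88026867-88027266), and of 2.94 (adjusted p = 8.04e-07) at the inner stretch where neonatal peaks lay.

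Of the enzymes, Car2 (chromosome 3, 14886269 to 14900770, plus strand) had promoter peaks over 0, 0.352 and 0.248 kb in the neonatal and 5.87, 4.64 and 6.64 kb in the adult libraries (0.20 ± 0.181 against 5.72 ± 1.01 kb, SD, n = 3 each, exact permutation p = 0.1). The stretch over its start (chr3:14884922-14890320) held both neonatal peaks. Its strongest promoter peak ranked within the top 0.154%, 0.795% and 1.17% of the adult lists by p-value, with a fold enrichment over background, as the authors' caller gave it, of 32.5 in adult replicate 1. Further peaks lay in and around the gene, where non-promoter coverage was 1.22, 3.27 and 5.40 kb in the adult and 0 kb in each neonatal library. Of this, 0, 0.680 and 1.41 kb was intergenic and the rest in introns and exons. The authors' deposited table lists 9 sites for Car2, the most of the 8 genes, with log2 fold changes from 1.66 in intergenic sequence to 6.20 upstream of the start (chr3:14883422-14883821, adjusted p = 2.89e-07). At the start itself, where neonatal peaks lay, the authors' deposited table gives 3.06 on the log2 scale (adjusted p = 2.79e-08).

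Qdpr (chromosome 5, 45434032 to 45450229, minus strand) had promoter peaks over 0, 0.381 and 0 kb in the neonatal and 4.83, 5.52 and 6.97 kb in the adult libraries (0.127 ± 0.220 against 5.77 ± 1.10 kb, SD, n = 3 each, exact permutation p = 0.1). Its RefSeq start at 45450229, beside the CpG-dense sequence printed above, was in no peak of any library. In the adult libraries it fell in gaps of 363, 555 and 524 bp between peaks on either side. This holds for that position only. Other annotated transcript starts of Qdpr, at 45450176 or 45450121, were inside a peak in all 3 adult libraries and in neonatal replicate 2. The downstream stretch (chr5:45447113-45450197) covered 2.49, 2.49 and 3.02 kb in the adult libraries and held the neonatal peak of replicate 2, 86 bp from the start, whereas the upstream stretches (chr5:45450561-45451493 and chr5:45451611-45452331) had no neonatal peak. The authors' deposited table lists 6 sites for Qdpr, with the highest log2 fold change, 3.74 (adjusted p = 1.30e-06), in the farther upstream stretch and 2.31 (adjusted p = 3.48e-05) just downstream of the start. A gap at the RefSeq start was thus seen in all adult libraries at Qdpr, in 2 of 3 at Apod, in adult replicate 2 at Hapln2 (222 bp) and in adult replicate 1 at Anln (416 bp, with the start outside any peak also in adult replicate 2), and in none at Ptgds or the first starts of Il33 and Klk6. In the libraries with a gap at Apod or Hapln2, another annotated transcript start (31314594 or 88027478) was inside a peak.

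Il33 (chromosome 19, 29925113 to 29960718, plus strand), the cytokine, had more covered length outside promoters than at them in every adult library. Its promoter peaks covered 0, 0.174 and 0 kb in the neonatal and 3.15, 3.28 and 5.24 kb in the adult libraries (0.058 ± 0.10 against 3.89 ± 1.17 kb, SD, n = 3 each, exact permutation p = 0.1). Its non-promoter peaks covered 0 kb in each neonatal library and 7.99, 8.14 and 12.1 kb in the adult ones (adult mean 9.42 ± 2.35 kb, SD, n = 3, exact permutation p = 0.1). Under the authors' assignment this was the longest of the 8 genes; counted by position, which leaves out the far stretch, the difference was 2.02 kb, and that of Ptgds was 11.7 kb. The larger part was a stretch 17.0 to 25.8 kb upstream (chr19:29899345-29908138), inside the long non-coding RNA gene Gm41832, which covered 6.28, 5.80 and 8.79 kb in the adult libraries. In adult replicate 3 it was 1 unbroken peak, and in adult replicate 2 a short part of it is assigned to Gm50380. A nearer stretch 6.55 to 8.53 kb upstream (chr19:29916586-29918565), likewise inside Gm41832, covered 1.53, 1.33 and 1.98 kb, also with no neonatal peak.

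At the first start of Il33, which was inside a peak in all adult libraries, the stretch chr19:29924388-29927251 covered 1.99, 2.26 and 2.85 kb in the adult and 0 kb in each neonatal library. The one neonatal peak of the gene, in replicate 2, lay in another stretch inside the gene (chr19:29947943-29949354), 23593 bp downstream of the first start. The authors' deposited table lists 7 sites for Il33. The authors' deposited table puts their log2 changes at 2.93 at the first start (adjusted p = 7.27e-06), 3.24 in the far upstream stretch (adjusted p = 6.54e-07), 4.34 beside the nearer one (chr19:29918667-29919066, adjusted p = 8.76e-05) and 2.11 at the stretch with the neonatal peak (adjusted p = 0.00284). The strongest promoter peak of Il33 was only within the top 29.6%, 24.3% and 18.2% of the adult lists, and that of Klk6 within the top 22.2%, 43.7% and 33.8%, while those of the other 6 genes were all within the top 12.3%.

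Anln (chromosome 9, 22331214 to 22389211, minus strand), the scaffold protein, had promoter peaks over 0, 0.25 and 0.161 kb in the neonatal and 1.52, 1.44 and 2.91 kb in the adult libraries (0.137 ± 0.127 against 1.96 ± 0.824 kb, SD, n = 3 each, exact permutation p = 0.1). Its start region (chr9:22389086-22390161) covered 0, 0.25 and 0.161 kb in the neonatal and 0.772, 0.387 and 1.08 kb in the adult libraries. That region is shared with the overlapping gene 9530077C05Rik, so the peaks cannot be given to one of them. Most of the other adult promoter length lay 13.7 to 16.5 kb after the start, with no neonatal peak. It counts as promoter because another annotated transcript of Anln starts nearby, at 22372224. Well inside the gene, 8.88 to 12.9 kb after the start (chr9:22376286-22380336), the adult libraries had 1.60, 3.17 and 3.80 kb and each neonatal library 0 kb. In the authors' deposited table the exon site there (chr9:22376617-22377016) had a log2 fold change of 5.55 (adjusted p = 2.40e-09) and the site at the start 1.79 (adjusted p = 4.92e-05), the lowest of the 19 promoter sites of the set.

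Every site that the authors' deposited table lists for the 8 genes was higher in the adult cells. There were 33, each gene had at least 1, and 19 were promoter sites. At least 1 site higher in adult was listed in the authors' deposited table for 65.0% of the 23433 genes with a peak, and a promoter site of that kind for 64.3% of the 18548 genes with a promoter peak, beside 8 of 8 here. Of all 43888 listed sites 43634 were positive in the authors' deposited table, so direction alone does not set the 8 genes apart. The largest adjusted p in the authors' deposited table was 0.0499958, so sites above 0.05 are not in it. Sites of these genes that did not differ between the ages therefore could not be seen. The sites of 1 gene are also not independent, and Car2 alone has 9. Size, compared among listed sites only, differed more: the authors' deposited table gives a median log2 fold change of 3.06 at the promoter sites beside 1.86 over all listed promoter sites, and of 3.73 at the other 14 sites beside 2.85. Above the median of their class lay 18 of 19 promoter and 10 of 14 other sites.

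**Figure D3:**
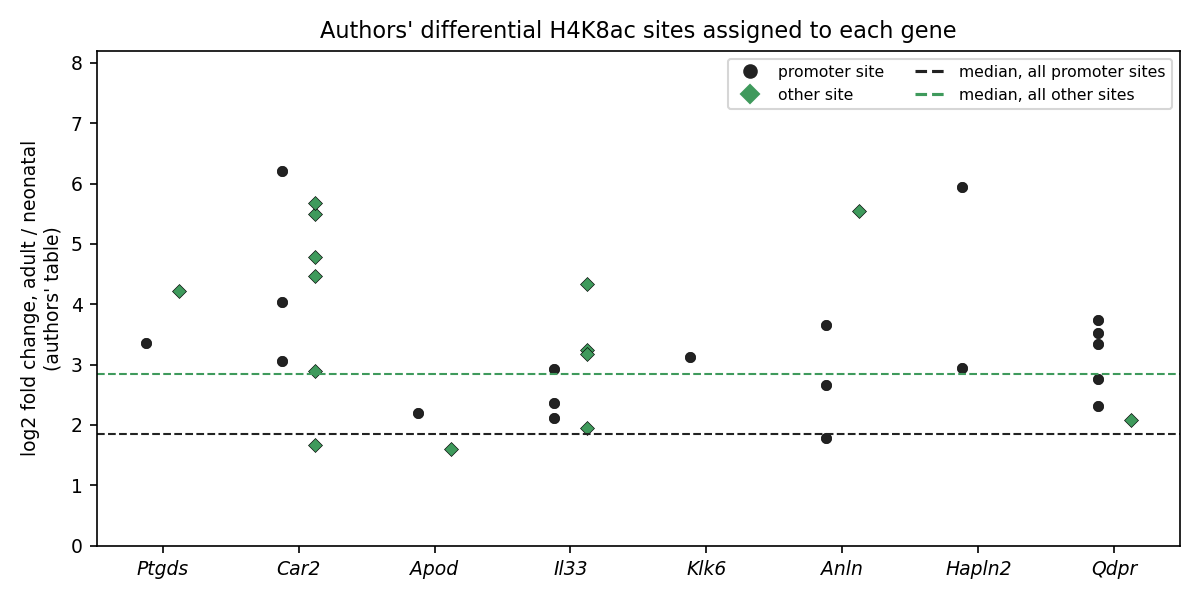
Log2 fold change, adult over neonatal, of each site in the authors' deposited table assigned to 1 of the 8 genes (y axis), with promoter sites as black circles and other sites as green diamonds. Dashed lines mark the medians over all listed promoter sites (1.86) and all other listed sites (2.85); the lowest promoter site is the start of Anln at 1.79 and the highest site is upstream of Car2 at 6.20.

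List length was taken into account in 2 ways. At the equal list length of 7353 peaks, 0, 0 and 2 of the 8 genes kept a promoter peak in the neonatal libraries and 5, 4 and 4 in the adult ones. Ptgds, Car2, Anln and Hapln2 then had all adult libraries above all neonatal ones, by 8.19, 4.20, 0.691 and 4.90 kb (exact permutation p = 0.1, adjusted p = 0.252), beside 35.0% of the 9904 genes with a promoter peak left. Qdpr kept one in 1 adult library, and Apod, Il33 and Klk6 kept none. Ptgds and Hapln2 then had promoter peaks in each adult list and none in the neonatal lists. The share of all genes with that pattern at equal list length was not counted.

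As a share of the covered length of its list, the 8 genes took 84.4, 208 and 175 bp per Mb in neonatal replicates 1, 2 and 3 and 1241, 1318 and 1242 bp per Mb in the adult ones, a comparison chosen after seeing the data. The adult libraries were thus close to each other on this scale although their lists cover 41.9 to 60.9 Mb. By promoter length per covered Mb, 5 of the 8 genes (Ptgds, Apod, Il33, Klk6 and Qdpr) had all adult libraries above all neonatal ones, beside 17.8% of genes. Car2, Anln and Hapln2 overlapped: Car2 had 106 bp per Mb in neonatal replicate 3 and 105 in adult replicate 2, Anln 69.0 in neonatal replicate 3 and 47.7 in adult replicate 3, and Hapln2 84.4 in neonatal replicate 1 and 81.3 in adult replicate 3. The Hapln2 value of adult replicate 3 leaves out the stretch upstream of the start, which is assigned to Gm19439 in that library. Length counted by position was not taken per covered Mb. By non-promoter length per covered Mb, 4 genes separated (Ptgds, Car2, Il33 and Anln), beside 42.7% of genes, with 0 in every neonatal library and adult means from 63.8 (Car2) to 191 bp per Mb (Il33).

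**Figure D4:**
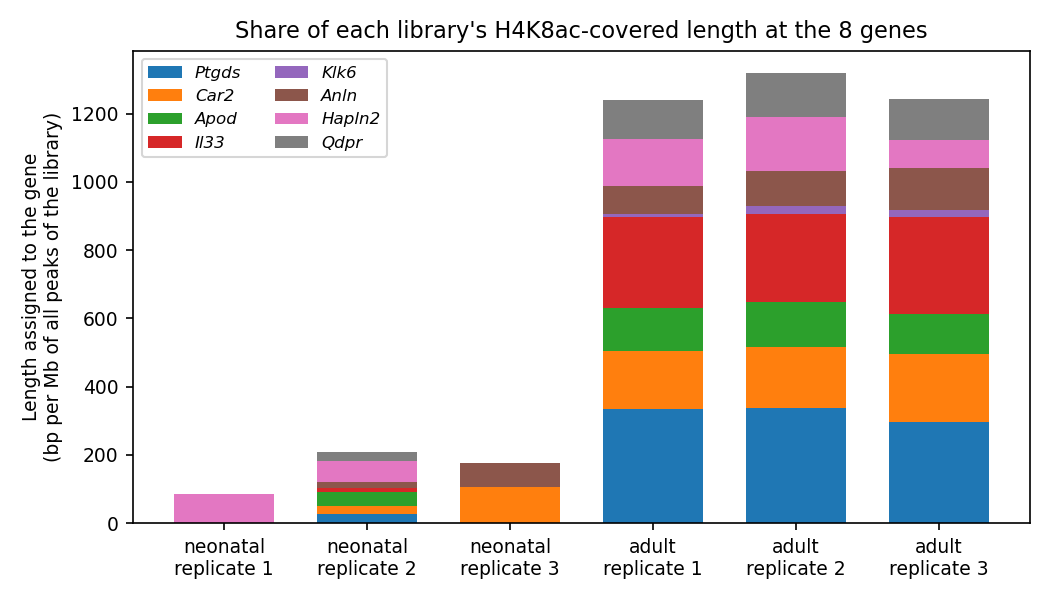
Length assigned to each of the 8 genes, promoter and other peaks together, per Mb of all peaks in the library (y axis, bp per Mb), stacked by gene for the 6 libraries. The neonatal stacks reach 84.4 to 208 bp per Mb and the adult ones 1241 to 1318, with Ptgds and Il33 the tallest segments in each adult library.

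Genes related to the 8 by family or pathway were counted in the same way. Of 60 such genes, 42 had a promoter peak in any library and 17 had all adult libraries above all neonatal ones, with 0 the other way, beside 60.1% of the 18548 genes with a promoter peak. Among those with a promoter peak in any library, these were 5 of 9 other carbonic anhydrases, 2 of 5 kallikreins and their receptor targets, 3 of 5 anillin partners, 3 of 4 genes of the receptor for Il33 and its signalling, 2 of 6 genes of tetrahydrobiopterin metabolism, 1 of 7 link proteins and lecticans, 1 of 5 genes of prostaglandin D2 and 0 of 1 lipocalin. Car3, Car14 and Klk9 had promoter peaks in each adult list and none in the neonatal lists. Car14, a membrane-bound carbonic anhydrase, covered 5.54, 5.46 and 6.12 kb in the adult libraries, while Car3, which lies beside Car2, covered 0.305, 0.442 and 0.741 kb and Klk9 0.940, 1.14 and 1.51 kb.

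The receptors in these lists, named after their values were seen, varied. Il1rl1, the receptor of Il33, and F2rl1, a protease-activated receptor, had no assigned peak in any library. F2r, another protease-activated receptor, had promoter peaks over 0.380, 0.829 and 0.190 kb in the neonatal and 0.313, 0.333 and 0 kb in the adult libraries. Ptgdr and Ptgdr2, the receptors of prostaglandin D2, had no promoter peak, but Ptgdr2 had non-promoter peaks in all 6 libraries, over 0.355, 0.790 and 0.426 kb in the neonatal and 0.766, 0.795 and 0.881 kb in the adult ones. Il1rap, the co-receptor of Il1rl1, had promoter peaks over 0, 0.651 and 0.169 kb in the neonatal and 3.67, 3.20 and 6.05 kb in the adult libraries. The authors' deposited table lists 65 sites at 23 of the 60 genes, all higher in adult, with a median log2 fold change of 2.57. Its largest log2 changes there, per the authors' deposited table, were 6.51 between Car3 and Car2 (adjusted p = 8.44e-08) and 6.42 in an intron of Il1rap (adjusted p = 8.69e-08). The smallest in the authors' deposited table were 1.12 at Spr, sepiapterin reductase (adjusted p = 0.0259), and 1.15 at Tnr, tenascin-R (adjusted p = 0.0137).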

How the data were processed

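H4K8ac ChIP-seq peaks of 6 libraries, 3 per age, were analysed; the 6 input libraries were not analysed here. Per the submitters' processing notes, the build was GRCm38 and the tools Trim Galore, Bowtie2 2.4.5, SAMtools, deepTools, MACS2, DiffBind and ChIPseeker; their settings are not given in the sources used here. The authors deposited for each peak a fold enrichment (linear ratio to background), a score, the −log10 p-value, the −log10 q-value and a gene assignment, called per library, per the file headers. The authors' deposited table of sites gives log2 fold changes with raw and adjusted p-values; overlap with the lists showed that positive values are higher in adult. Largest q-values in the lists were 0.0427 to 0.0489.

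Starts were read as 0-based and written 1-based. Covered length per gene was summed over peaks assigned to it, and compared by an exact two-sided permutation test of 20 arrangements on every gene, with Benjamini-Hochberg adjustment (Python 3.11.15, pandas 2.3.3), checked on simulated data. Peaks merged over lists shared at least 1 bp; a site took the gene of its best overlapping peak. Named relatives were those with a promoter peak in all libraries of 1 age only and those with the 2 largest and 2 smallest listed fold changes; receptors among the relatives were added after their values were seen. The members and lists were chosen with earlier results of these data known.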

Additional observations from a re-analysis of the deposited data

How the results depend on the processing

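Across 11 settings, the 147 differences per gene were all positive, at exact permutation p from 0.1 to 1. With each list at 7353 peaks, 4 genes in place of 8 had adult promoter length above neonatal in every library, 1 in place of 5 did so outside promoters, and 2 in place of 1 had promoter peaks in each adult list and none in the neonatal lists. Per covered Mb, chosen after seeing the data, 5 genes separated at promoters. Leaving out 1 library at a time, the last count ranged from 1 to 5 (5 without neonatal replicate 2), the promoter count was 8 throughout, and the non-promoter count ranged from 5 to 6. By position it was 7. Outside the main setting, shares over all genes were counted only for promoter separation at equal list length and for separation per covered Mb. Depth limits every absence, since the lists hold no read counts.

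With a replicate block (a sign-flip test of paired differences, smallest possible p 0.25), the 14 differences ranged from 0.148 to 9.42 kb, all positive, at exact p from 0.25 to 0.5. Same-numbered libraries had correlations of deviations of -0.0378, 0.0254 and 0.0697 over genes, and differently numbered ones from -0.0956 to 0.0700. The same-numbered ones thus did not stand out, but with 3 libraries per age this cannot show or exclude a pairing. At equal list length no value could be had for promoters of Apod, Il33 and Klk6, or outside promoters for Car2, Apod, Anln and Qdpr.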
